A study of Arabidopsis thaliana with 18 samples.

Results

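The genes described here are 10 jasmonate genes of Arabidopsis thaliana, out of 33602 loci in the deposited tables. They were picked by locus identifier as genes of 1 pathway, with earlier results of these data known. LOX2 (AT3G45140), LOX3 (AT1G17420), LOX4 (AT1G72520), AOS (AT5G42650), AOC1 (AT3G25760), AOC2 (AT3G25770) and OPR3 (AT2G06050) act along the route to jasmonic acid. JAR1 (AT2G46370) makes the active hormone from it, and VSP1 (AT5G24780) and VSP2 (AT5G24770) are classical jasmonate-induced genes. Reads were counted in 18 poly(A) RNA-seq libraries of whole seedlings, 3 for each of 6 groups. The groups were ahl10-1, a T-DNA insertion line in the AT-hook gene AHL10, rrp6l1-2, a T-DNA insertion line in RRP6L1, a gene related to the exosome exonuclease RRP6, and the Col-0 wild type (WT). Each genotype was sampled at low water potential (-0.7 MPa, imposed with polyethylene glycol in the agar, called stress below) and at control water potential (-0.25 MPa). All seedlings grew under continuous light on medium without sugar, were moved on day 7 and were harvested 96 h later. Each mutant is represented by 1 allele.

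Jasmonates are lipid hormones made from linolenic acid of chloroplast membranes. A lipoxygenase adds oxygen to the fatty acid, allene oxide synthase and allene oxide cyclase turn the product into a cyclic precursor, and OPR3 reduces that precursor in the peroxisome, where beta-oxidation shortens it. JAR1 joins the resulting jasmonic acid to isoleucine. The conjugate brings the receptor COI1 together with JAZ repressors, which are then degraded, and this frees MYC transcription factors to switch on genes such as VSP2. Many of the synthesis genes are themselves jasmonate-induced.

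The sequence before the annotated start was read for all 10 genes and is shown for 6 of them, LOX2 and AOS as examples of MYC-type letter patterns and the VSP and AOC pairs for a stretch that tandem copies share. All windows are the 250 bases before the RefSeq gene start on TAIR10.1, written in the gene's own direction. LOX2 (window chr3:16524995-16525244, plus strand) and AOS (chr5:17099596-17099845, minus strand) are shown with the G-box letters in capitals, the variant CACATG in LOX2 and CACGTG in AOS.
LOX2: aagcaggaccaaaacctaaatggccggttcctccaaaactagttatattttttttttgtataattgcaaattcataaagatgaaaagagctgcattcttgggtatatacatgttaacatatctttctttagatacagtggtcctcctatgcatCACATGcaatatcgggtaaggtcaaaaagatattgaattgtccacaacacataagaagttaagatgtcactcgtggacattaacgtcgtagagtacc
AOS: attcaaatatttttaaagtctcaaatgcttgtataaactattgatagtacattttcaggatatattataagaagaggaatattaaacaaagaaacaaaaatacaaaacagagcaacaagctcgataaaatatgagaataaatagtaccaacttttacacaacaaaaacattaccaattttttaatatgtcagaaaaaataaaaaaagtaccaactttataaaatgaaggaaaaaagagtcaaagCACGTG
The LOX2 match lay 97 to 92 bases before the start and the AOS match 6 to 1 bases before it. CACGTG was found in 1 of the 10 members and in 6.49% of 27443 such windows of the genome, and CACATG, read on both strands, in 3 members (LOX2, LOX3 and JAR1) and in 11.1% of windows. ACGTG, the core of the abscisic acid response element, which every CACGTG also contains, was in 5 members and in 22.9% of windows. A match describes letters in these windows and no more.

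VSP1 (window chr5:8509202-8509451) and VSP2 (chr5:8502225-8502474) lie on the minus strand with 5365 bases between them, and AOC1 (chr3:9403529-9403778) and AOC2 (chr3:9406419-9406668) on the plus strand with 1330 bases between them. Capitals mark the longest run of letters that the windows of a pair share.
VSP1: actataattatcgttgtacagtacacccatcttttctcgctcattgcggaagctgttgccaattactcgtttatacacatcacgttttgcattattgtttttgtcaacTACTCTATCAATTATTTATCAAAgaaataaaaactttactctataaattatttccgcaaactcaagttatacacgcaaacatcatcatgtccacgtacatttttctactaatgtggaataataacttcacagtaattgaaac
VSP2: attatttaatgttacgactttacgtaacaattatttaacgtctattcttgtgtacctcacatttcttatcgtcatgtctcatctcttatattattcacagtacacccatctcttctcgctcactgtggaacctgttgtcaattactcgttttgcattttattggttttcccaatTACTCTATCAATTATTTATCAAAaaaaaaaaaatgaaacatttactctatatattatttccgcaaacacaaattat
AOC1: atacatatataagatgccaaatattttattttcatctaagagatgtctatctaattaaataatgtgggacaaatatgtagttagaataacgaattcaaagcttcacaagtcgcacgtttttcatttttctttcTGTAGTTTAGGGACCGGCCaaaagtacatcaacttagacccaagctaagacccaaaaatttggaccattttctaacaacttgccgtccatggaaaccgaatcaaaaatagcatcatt
AOC2: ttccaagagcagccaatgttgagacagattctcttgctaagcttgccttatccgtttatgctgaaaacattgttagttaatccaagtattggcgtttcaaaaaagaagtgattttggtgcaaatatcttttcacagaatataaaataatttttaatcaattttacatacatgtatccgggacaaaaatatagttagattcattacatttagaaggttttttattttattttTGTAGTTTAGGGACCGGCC
The shared run was 23 bases in the VSP pair, 142 to 120 bases before the VSP1 start and 76 to 54 bases before the VSP2 start, and 89.7% of the 165 aligned bases were identical. It was 19 bases in the AOC pair, at 117 to 99 bases before AOC1 and 19 to 1 bases before AOC2, with 48.9% identity over 237 aligned bases. The coding sequences were 89.5% identical between VSP1 and VSP2 and 90.3% identical between AOC1 and AOC2. The deposited share of reads mapping to several places was 0 for every member in every library, so the tables assign each read to 1 copy.

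All 10 members passed the filter on low counts, which kept 22795 genes. Library totals were 57996104 to 68555138 reads, and a member had from 126 reads (LOX4) to 94994 reads (LOX2) in a library. In ahl10-1, AHL10 was at 14.3 to 16.8 at stress and 10.8 to 13.1 at control, against 32.1 to 33.3 and 23.2 to 24.0 in WT. In rrp6l1-2, RRP6L1 was at 1.59 to 2.80 at stress and 2.44 to 3.89 at control, against 12.1 to 12.6 and 10.98 to 12.2 in WT. These and all levels below are TMM-scaled RPKM, reads scaled by gene length and by TMM-corrected library total, so that genes and libraries can be compared. The summed levels of the shoot and of the root markers were above 0 in every library. None of 8 shoot and 12 root markers was at 0 in all 3 libraries of a group. Fold changes are log2 of stress over control, or of mutant over WT, with their standard error (SE) from edgeR's quasi-likelihood fit, and adjusted p is Benjamini-Hochberg over all genes tested. Calls were made below an adjusted p of 0.05. In whole seedlings, a change in the number of cells that express a gene cannot be told apart from a change in RNA per cell.

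At low water potential the VSP genes, LOX2 and AOC2 rose at least 2-fold in all 3 genotypes. OPR3 rose by less, and LOX3 and LOX4 did not pass the test in any. In ahl10-1, 8 of the 10 members rose, where 15.7% of all genes tested rose. In rrp6l1-2, 6 rose, where 14.9% of all genes did, and in WT 5 rose, where 12.6% did. No member was called lower, where 14.4% of all genes fell in ahl10-1, 14.7% in rrp6l1-2 and 13.4% in WT. The stress libraries lay wholly above the control libraries for 8 members in ahl10-1, 6 in rrp6l1-2 and 5 in WT, as they did for 21.6%, 23.1% and 21.9% of all genes. The 5 genes that rose in all genotypes were LOX2, AOC2, OPR3, VSP1 and VSP2. AOC1 was also called in ahl10-1 and rrp6l1-2, and AOS and JAR1 in ahl10-1. The median log2 fold change of the members was 0.91 in ahl10-1, 0.56 in rrp6l1-2 and 0.47 in WT, beside 0.01, 0.02 and -0.00 for all genes tested. Rises of at least 2-fold were found for LOX2, AOC2, VSP1 and VSP2 in each genotype and for AOC1 in ahl10-1, while 3.58% of all genes rose that far in ahl10-1, 2.98% in rrp6l1-2 and 2.83% in WT. The 3 comparisons use separate libraries.

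**Figure D1:**
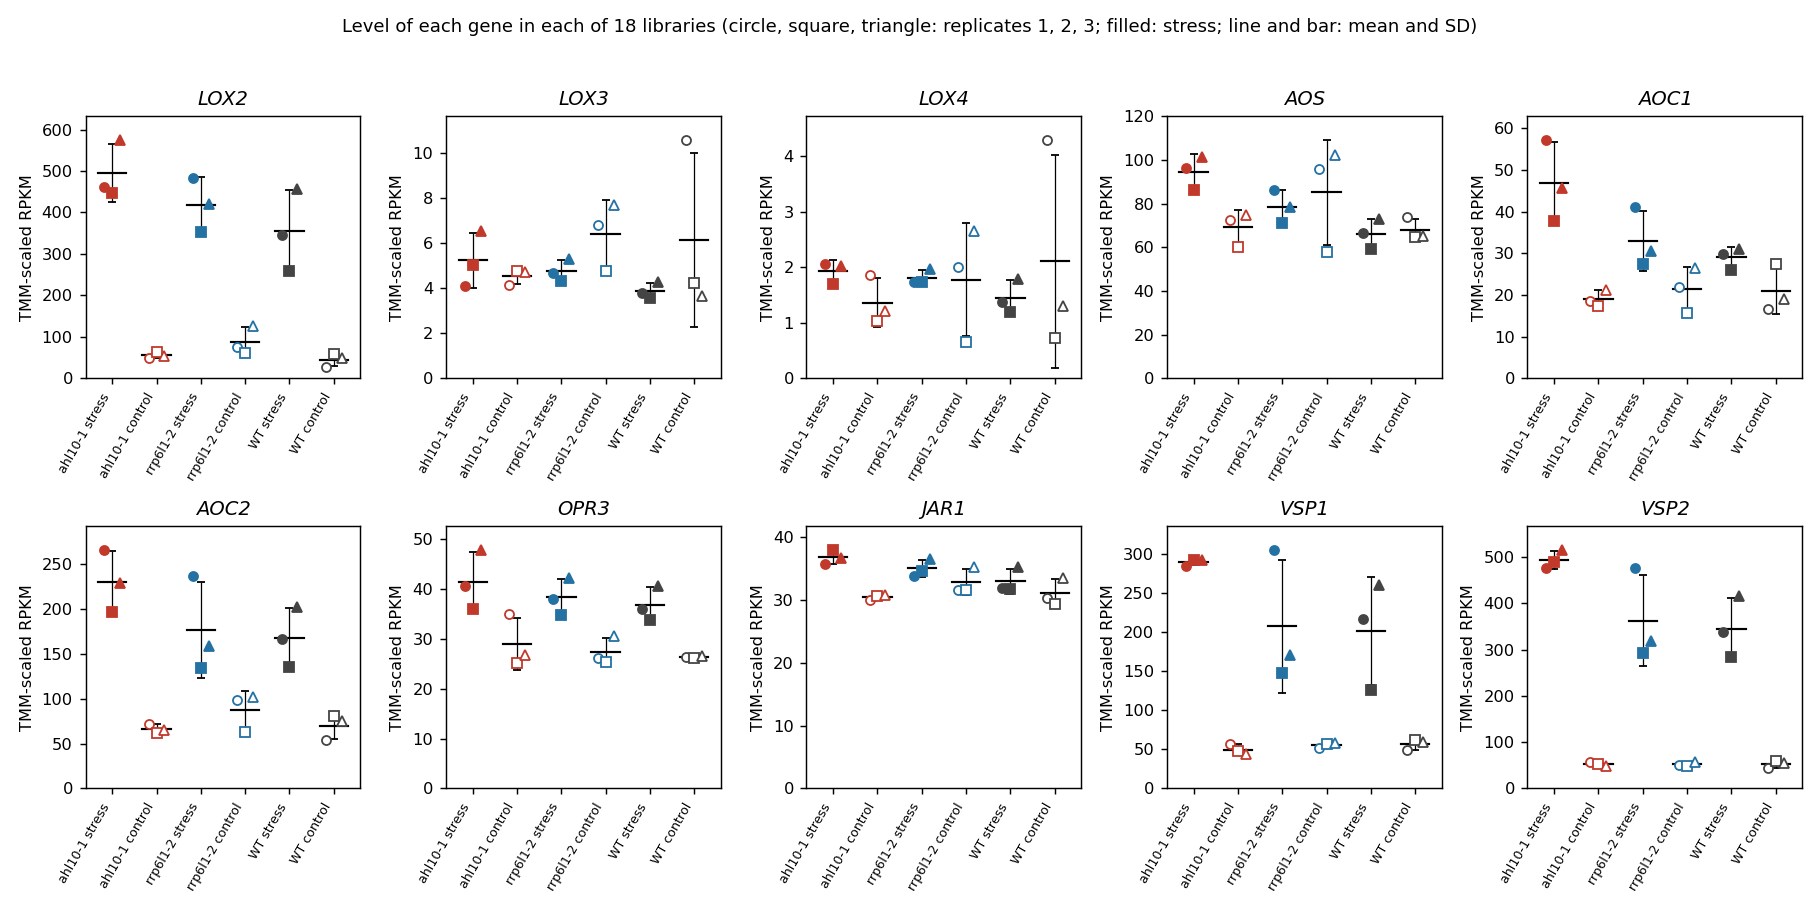
Level of each of the 10 genes in each of the 18 libraries (TMM-scaled RPKM, linear axis from 0; circle, square and triangle are replicates 1, 2 and 3; filled symbols are stress; horizontal line and bar are mean and SD, n = 3). LOX2, AOC2, VSP1 and VSP2 separate every stress library from every control library, and LOX3 and LOX4 have their highest value in 1 WT control library.

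LOX2 encodes the chloroplast 13-lipoxygenase that supplies most of the jasmonate of wounded leaves. Its level in ahl10-1 was 461, 447 and 575 at stress, against 49.4, 62.7 and 54.2 at control. The rrp6l1-2 libraries were at 484, 353 and 419.6 at stress, against 76.2, 61.2 and 127 at control. In WT it was 347, 258 and 458 at stress, against 27.8, 57.8 and 48.2 at control. Every stress library of the study lay above every control library, and the lowest control value was in WT replicate 1. The stress response was 3.16 ± 0.31 (SE) in ahl10-1, an 8.92-fold rise (adjusted p = 2.94e-06). It was 2.25 ± 0.30 or 4.76-fold in rrp6l1-2 (adjusted p = 5.91e-05), the genotype with the highest control mean, 88.1 ± 34.5 (SD, n = 3). It was 2.99 ± 0.31 in WT (adjusted p = 5.85e-06).

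LOX3 and LOX4 encode the other pair of chloroplast 13-lipoxygenases named here, whose coding sequences are 80.7% identical to each other, and both were far less abundant than LOX2. LOX3 in ahl10-1 was at 4.12, 5.05 and 6.53 at stress and 4.13, 4.77 and 4.70 at control. In rrp6l1-2 LOX3 was at 4.65, 4.30 and 5.31 at stress and 6.78, 4.75 and 7.67 at control, and in WT at 3.79, 3.57 and 4.26 at stress and 10.6, 4.21 and 3.64 at control. The groups overlapped in each genotype, and 1 WT control library, replicate 1, stood far above the other 17. LOX4 showed the same library at the top, with 1.37, 1.19 and 1.80 in WT stress and 4.30, 0.735 and 1.29 in WT control. LOX4 was at 2.06, 1.71 and 2.03 in ahl10-1 stress and 1.86, 1.03 and 1.21 in ahl10-1 control, and at 1.73, 1.74 and 1.98 in rrp6l1-2 stress and 2.00, 0.660 and 2.66 in rrp6l1-2 control. Neither gene passed the test in any genotype. For LOX3 the log2 fold changes were 0.21 ± 0.32 in ahl10-1, -0.43 ± 0.32 in rrp6l1-2 and -0.67 ± 0.32 in WT (adjusted p = 0.665, 0.330 and 0.141), and for LOX4 0.50 ± 0.54, 0.04 ± 0.54 and -0.54 ± 0.54 (adjusted p = 0.525, 0.967 and 0.499). The WT values turned on single control libraries. Without WT control replicate 1, LOX3 was at -0.02 and LOX4 at 0.51, and without WT control replicate 3, LOX3 was at -0.93 and passed the test (adjusted p = 0.0352).

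The WT control library in which LOX3 and LOX4 were highest was also the highest for 13 touch- and wound-responsive genes (among them TCH2, TCH3 and TCH4, named for their induction by touch, and ZAT10 and WRKY40, transcription factors of early stress responses). The summed level of these 13 genes was 143, 118 and 109.7 in ahl10-1 stress and 514, 216 and 514 in ahl10-1 control, and 198, 103 and 134 in rrp6l1-2 stress and 727, 161 and 861 in rrp6l1-2 control. It was 149, 158 and 152 in WT stress and 1862, 301 and 591 in WT control. Control libraries thus ran above stress libraries apart from an overlap in rrp6l1-2, and they varied widely within each genotype. The next highest levels of LOX3 and LOX4 were in rrp6l1-2 control replicate 3, which had the next highest sum. This order did not hold throughout. WT control replicate 3, with a sum of 591, had lower LOX3 and LOX4 than ahl10-1 stress replicate 3, with a sum of 109.7. None of the 13 genes was at 0 in all 3 libraries of a group. At stress 3 were called lower in ahl10-1 (14.4% of all genes were), 4 in rrp6l1-2 (14.7%) and all 13 in WT (13.4%). These counts depended on the setting, with 0 to 11 in ahl10-1, 1 to 11 in rrp6l1-2 and 2 to 13 in WT over the 15 alternatives. With the replicate number as a block, 6 were called lower in ahl10-1 and 9 in rrp6l1-2. WT control replicate 1 had the highest touch and wound level. Without it, LOX2 rose in WT by 2.74 and VSP2 by 2.60, and 5 members were called. The remaining WT control libraries, at 301 and 591, were still above every WT stress library, so the difference in touch and wound level stayed. The part of touch or wounding in the values of LOX3, LOX4 or any other member was not tested.

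**Figure D2:**
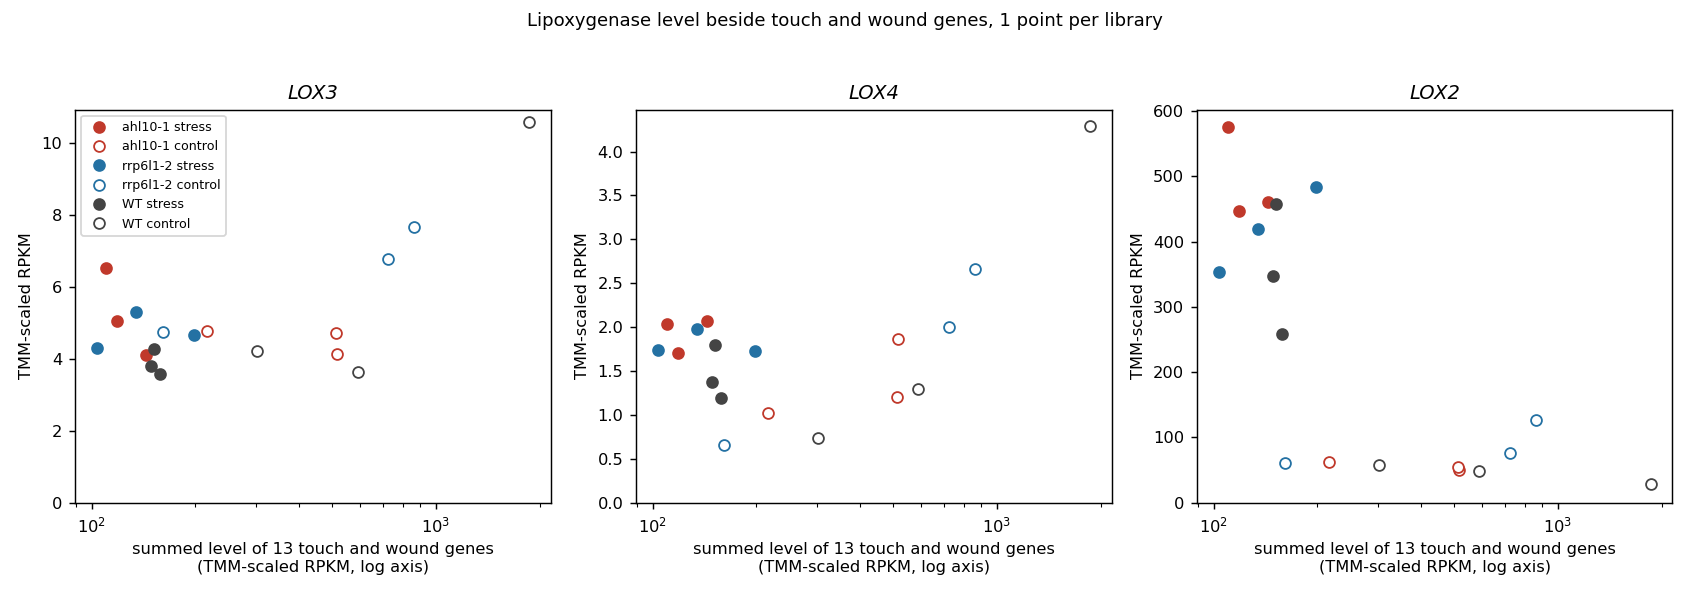
Level of LOX3, LOX4 and LOX2 (TMM-scaled RPKM, linear axis) against the summed level of 13 touch and wound genes (TMM-scaled RPKM, log axis), 1 point per library, filled for stress and open for control. The library farthest to the right, WT control replicate 1 with a sum of 1862, has the highest LOX3 and LOX4 and the lowest LOX2.

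AOS, allene oxide synthase, makes the first committed intermediate of the route. In ahl10-1 its level was 96.3, 86.1 and 102 at stress, against 72.7, 60.3 and 74.6 at control, and the groups did not overlap. In the rrp6l1-2 libraries AOS was at 86.4, 70.9 and 78.7 at stress, against 95.7, 57.7 and 102 at control, and in WT 66.5, 59.1 and 72.8 at stress, against 73.8, 64.8 and 65.4 at control. Both of these overlapped. AOS rose in ahl10-1 by 0.45 ± 0.16, a 1.37-fold change (adjusted p = 0.0453), and this call rested on all 6 libraries: leaving out any one gave 0.35 to 0.51 with adjusted p from 0.0595 to 0.172. The call also ended with DESeq2-type size factors (adjusted p = 0.0543) and without the filter on low counts (adjusted p = 0.0661). With the replicate number as a block in edgeR it held (0.46, adjusted p = 0.00651). The values in rrp6l1-2 and WT were -0.11 ± 0.16 (adjusted p = 0.631) and -0.04 ± 0.16 (adjusted p = 0.885), and both turned slightly positive with plain library sizes. Without rrp6l1-2 control replicate 2, the lowest AOS library, AOS was lower at stress in rrp6l1-2 by -0.35 (adjusted p = 0.0378).

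AOC1 and AOC2 encode allene oxide cyclases, which set the stereochemistry of the cyclic precursor. AOC2 was the more abundant copy in all 18 libraries. In ahl10-1, AOC2 was at 266, 196 and 229 at stress, against 72.3, 61.8 and 64.8 at control. The rrp6l1-2 libraries had 237, 134 and 159 at stress, against 98.4, 62.7 and 101 at control, and in WT at 166, 136 and 202 at stress, against 53.7, 80.5 and 75.0 at control. No stress library overlapped a control library. AOC2 rose by 1.80 ± 0.24 in ahl10-1 (adjusted p = 5.37e-05), by 1.01 ± 0.23 in rrp6l1-2 (adjusted p = 0.00461) and by 1.27 ± 0.23 in WT (adjusted p = 0.00102). The rrp6l1-2 call did not hold when the model held only the libraries compared (1.01, adjusted p = 0.0502).

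AOC1 was at 57.2, 37.6 and 45.6 in ahl10-1 stress, against 18.5, 17.2 and 21.3 in ahl10-1 control, and rose by 1.299 ± 0.221 (adjusted p = 0.00049), which is 2.46-fold. AOC1 in rrp6l1-2 was at 41.1, 27.4 and 30.4 at stress, against 21.9, 15.7 and 26.5 at control, which do not overlap, and rose by 0.63 ± 0.22 (adjusted p = 0.0439). In WT it was at 29.8, 26.1 and 31.0 at stress, against 16.6, 27.4 and 19.1 at control, which overlap through control replicate 2, and the difference of 0.46 ± 0.22 did not pass (adjusted p = 0.136). The 95% interval of the WT value ran from -0.00 to 0.93. In the authors' deposited table AOC1 was called higher at stress in WT (0.44, adjusted p = 0.0336). That table called 6 members higher. It called 6352 genes in either direction, of 23692 with an adjusted p, and those called higher were not counted apart. The WT call of AOC1 therefore depends on the method. The rrp6l1-2 call ended without control replicate 1 (0.64, adjusted p = 0.0885), control replicate 2 (0.43, 0.174), stress replicate 1 (0.42, 0.204) or stress replicate 3 (0.66, 0.0768). With all libraries it ended with DESeq2-type size factors (adjusted p = 0.0507), without the filter on low counts (adjusted p = 0.0676) and with only the libraries compared in the model (adjusted p = 0.103). In WT, AOC1 passed without control replicate 2 (0.70, adjusted p = 0.0423). With the reads of AOC1 to AOC4 added into 1 row, the WT sum rose by 0.88 (adjusted p = 0.000748). This sum includes AOC2, with WT means of 168 at stress and 69.7 at control against 29.0 and 21.0 for AOC1. It is therefore not a test of AOC1 alone.

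OPR3 encodes the peroxisomal reductase of the cyclic precursor, and it rose 1.43-fold in ahl10-1, 1.40-fold in rrp6l1-2 and 1.40-fold in WT. In ahl10-1 it was at 40.5, 35.9 and 47.8 at stress, against 34.9, 25.1 and 26.8 at control. In rrp6l1-2 it was at 38.0, 34.9 and 42.2 at stress, against 26.2, 25.3 and 30.6 at control, and in WT at 35.9, 33.8 and 40.7 at stress, against 26.3, 26.1 and 26.5 at control. The stress libraries lay above the control libraries in each genotype. OPR3 rose by 0.52 ± 0.12 in ahl10-1 (adjusted p = 0.00522), 0.49 ± 0.12 in rrp6l1-2 (adjusted p = 0.00827) and 0.48 ± 0.12 in WT (adjusted p = 0.00908). The rrp6l1-2 call was lost without stress replicate 3 (0.40, adjusted p = 0.0528).

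JAR1, the enzyme that conjugates jasmonic acid to isoleucine, had the smallest ratio of highest to lowest library among the 10, running from 29.3 to 37.9. In ahl10-1 it was at 35.7, 37.9 and 36.6 at stress, against 30.0, 30.7 and 30.8 at control, and rose 1.21-fold (0.27 ± 0.06, adjusted p = 0.00514). In rrp6l1-2 it was at 33.8, 34.6 and 36.6 at stress, against 31.6, 31.6 and 35.3 at control, and in WT at 31.8, 31.7 and 35.3 at stress, against 30.3, 29.3 and 33.5 at control. These groups overlapped, with differences of 0.09 ± 0.06 in rrp6l1-2 (adjusted p = 0.304) and 0.09 ± 0.06 in WT (adjusted p = 0.362). With plain library sizes the rrp6l1-2 value was 0.20 and passed (adjusted p = 0.0455).

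VSP1 and VSP2 encode vegetative storage proteins of the acid phosphatase family, which accumulate in leaves and flowers and are used as readouts of the MYC2 side of jasmonate signalling. VSP2 in ahl10-1 was at 477, 489 and 515 at stress, against 57.0, 51.9 and 47.6 at control. In rrp6l1-2 VSP2 was at 476, 293 and 319 at stress, against 50.3, 48.9 and 57.2 at control. In WT it was at 338, 283 and 416 at stress, against 43.5, 59.9 and 54.5 at control. The control libraries of the 3 genotypes shared the range from 43.5 to 59.9, far below every stress library. VSP2 rose by 3.24 ± 0.18 in ahl10-1, which is 9.46-fold (adjusted p = 1.22e-08), by 2.80 ± 0.18 in rrp6l1-2 (6.96-fold, adjusted p = 6.95e-08) and by 2.72 ± 0.18 in WT (6.57-fold, adjusted p = 7.04e-08).

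VSP1 was at 285, 291 and 292 in ahl10-1 stress, against 57.4, 47.7 and 44.0 in ahl10-1 control. In rrp6l1-2 it was at 304, 147 and 171 at stress, against 52.3, 56.8 and 57.4 at control, and in WT at 217, 126 and 260.1 at stress, against 48.6, 61.3 and 59.7 at control. Stress libraries lay above control libraries throughout, and replicate 2 was the lowest stress library of both rrp6l1-2 and WT, for VSP1 as for VSP2. VSP1 rose by 2.54 ± 0.27 in ahl10-1 (5.82-fold, adjusted p = 7.76e-06), by 1.90 ± 0.26 in rrp6l1-2 (3.73-fold, adjusted p = 0.000101) and by 1.83 ± 0.26 in WT (3.56-fold, adjusted p = 0.000133).

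**Figure D3:**
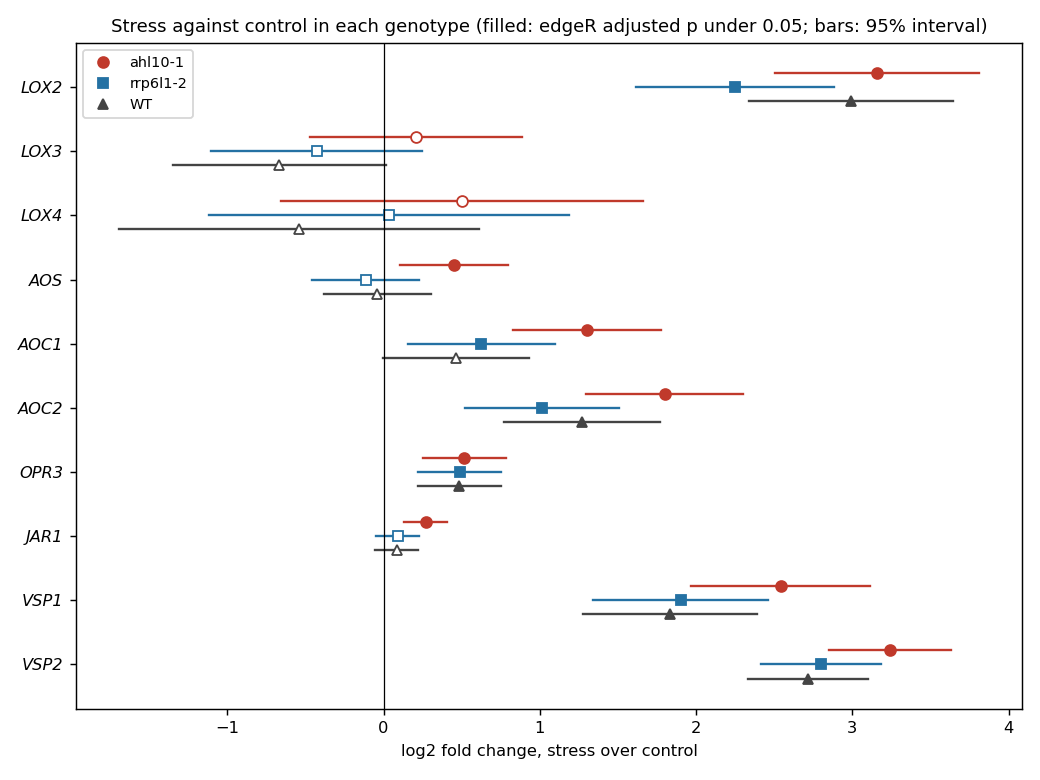
Log2 fold change of each gene, stress over control, in ahl10-1 (circles), rrp6l1-2 (squares) and WT (triangles), with 95% intervals from the fit; filled symbols passed an adjusted p of 0.05. The 8 filled ahl10-1 circles run from 0.27 (JAR1) to 3.24 (VSP2), and no filled symbol lies below 0.

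RNA levels of shoot and root markers are given beside these rises. The summed level of the 8 shoot markers was 22587 to 33018 in ahl10-1 stress and 25468 to 39161 in ahl10-1 control, 26231 to 30111 in rrp6l1-2 stress and 30584 to 40233 in rrp6l1-2 control, and 23386 to 24766 in WT stress and 24362 to 30442 in WT control. Of these markers, 1 was called lower at stress in ahl10-1 (FED_A, a ferredoxin gene) and 2 in rrp6l1-2 (FED_A and RBCS2B, a Rubisco small subunit gene), with 0 to 3 in ahl10-1 and 0 to 4 in rrp6l1-2 over the 15 alternatives. The FED_A call ended in 3 of these in ahl10-1 and in 4 in rrp6l1-2, and the RBCS2B call in 9. With the replicate block, 2 were called lower in ahl10-1. The summed level of the 12 root markers was 122 to 142 in ahl10-1 stress and 112 to 131 in ahl10-1 control, 111 to 144 in rrp6l1-2 stress and 92.9 to 140.2 in rrp6l1-2 control, and 120.1 to 135 in WT stress and 95.02 to 155 in WT control. Of the root markers, 3 were higher and 2 lower in ahl10-1, 3 higher and 1 lower in rrp6l1-2, and 1 higher and 1 lower in WT. Over the 15 alternatives, 1 to 4 were higher and 1 to 3 lower in ahl10-1, 0 to 3 higher and 1 to 2 lower in rrp6l1-2, and 0 to 6 higher and 0 to 2 lower in WT. With the replicate block, 1 was higher in rrp6l1-2. Of all genes tested, 15.7% were called higher in ahl10-1, 14.9% in rrp6l1-2 and 12.6% in WT, and 14.4%, 14.7% and 13.4% lower. The part of the markers' organs in the members' changes was not tested.

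At stress, every member had a higher fitted level in ahl10-1 than in WT, but none passed the test. All 10 values were also above 0 for rrp6l1-2 against WT at stress, with a median of 0.14, beside 0.004 for all genes. For rrp6l1-2, 9 of 60 values changed sign with single libraries left out and 7 of 90 in other settings. For ahl10-1, 0 did in either. The share of all genes above 0 was not counted. Both comparisons use the same WT stress libraries. For ahl10-1 at stress, edgeR called 0 of the 10, beside 0.0351% of all genes tested (8 genes), and DESeq2 also called 0 members. At an unadjusted p under 0.05 there were 4 members, namely AOS, AOC1, JAR1 and VSP2, beside 4.35% of all genes. The members' median was 0.47, beside 0.01 for all genes. The size of the difference was 0.69 ± 0.22 for AOC1, 0.52 ± 0.16 for AOS, 0.51 ± 0.17 for VSP2 and 0.52 ± 0.25 for VSP1. It was 0.48 ± 0.28 for LOX2, 0.46 ± 0.23 for AOC2, 0.43 ± 0.32 for LOX3 and 0.41 ± 0.54 for LOX4. OPR3 and JAR1 were nearest to 0, at 0.17 ± 0.12 and 0.16 ± 0.06. The adjusted p was 0.996 for each.

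The libraries of ahl10-1 stress lay wholly above those of WT stress for 5 members, AOS, AOC1, JAR1, VSP1 and VSP2, where 6.24% of all genes did so. For VSP2 the values were 477, 489 and 515 in ahl10-1 and 338, 283 and 416 in WT, and for AOS 96.3, 86.1 and 102 in ahl10-1 and 66.5, 59.1 and 72.8 in WT. For AOC2 the groups overlapped narrowly, with the lowest ahl10-1 library at 196 and the highest WT library at 202. The directions held when each of the 6 libraries was left out, with ranges of 0.51 to 0.82 for AOC1, 0.38 to 0.66 for VSP2 and 0.44 to 0.59 for AOS. In the authors' deposited table of this comparison, 3 members were called higher: AOS at 0.39 (adjusted p = 0.00103), AOC1 at 0.42 (adjusted p = 0.00288) and VSP2 at 0.35 (adjusted p = 0.0275). That table called 85 genes in either direction, of 23755 with an adjusted p. The same libraries gave no such call in the present fit, so the calls of these 3 genes depend on the method. Their deposited fold changes were smaller than those of the present fit, and the scales may differ.

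**Figure D4:**
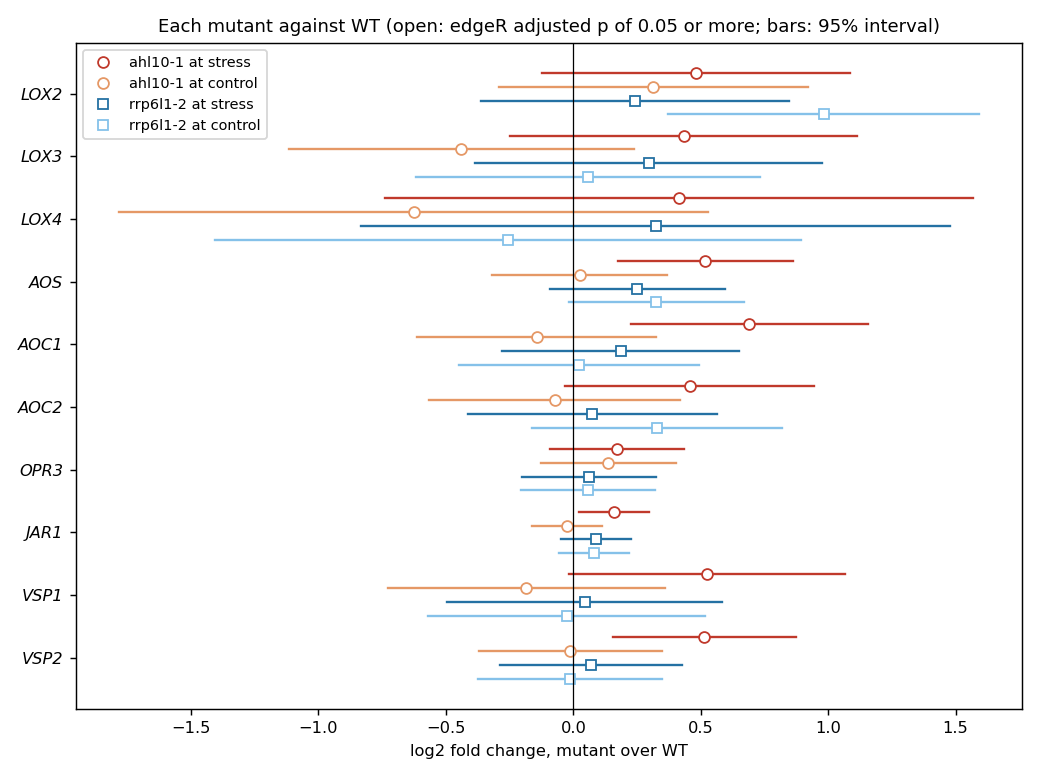
Log2 fold change of each gene, mutant over WT, for ahl10-1 at stress and control (circles) and rrp6l1-2 at stress and control (squares), with 95% intervals from the fit; all symbols are open because no adjusted p was under 0.05. The ahl10-1 values at stress lie between 0.16 and 0.69, and the intervals of LOX4 are the widest.

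At control water potential no member passed the test between ahl10-1 and WT. By edgeR 0 were called, beside 0.0263% of all genes (6 genes), 0 had an unadjusted p under 0.05, beside 5.94% of all genes, and DESeq2 called 0. The ahl10-1 libraries lay wholly above those of WT for 0 members, where 3.03% of all genes did so. The member values lay between -0.63 (LOX4) and 0.31 (LOX2), with 95% intervals from -1.78 to 0.53 for LOX4 and from -0.29 to 0.92 for LOX2. The LOX4 value reversed to 0.43 without WT control replicate 1.

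In rrp6l1-2 at control water potential, LOX2 was the member that differed most from WT. Its levels of 76.2, 61.2 and 127 in rrp6l1-2 lay above the 27.8, 57.8 and 48.2 of WT without overlap, as did 10.8% of all genes. The difference was 0.98 ± 0.29, or 1.98-fold (95% interval 0.37 to 1.59), and did not pass in edgeR (adjusted p = 0.14). DESeq2 called it (1.00, adjusted p = 0.0439), as the only member, among 804 genes or 3.49% of those it tested, and edgeR with the replicate number as a block gave 0.95 with an adjusted p of 0.0897. In the authors' deposited table LOX2 was at 0.36 (adjusted p = 0.217). LOX4 was at -0.03 there, so the deposited fold changes may not be on the scale of those here. By edgeR 0 members were called, and 0.211% of all genes were called (48 genes), against 0.649% with the block. At an unadjusted p under 0.05 there was 1 member, beside 17.6% of all genes. AOS was at 0.33 ± 0.16 (adjusted p = 0.312) with levels of 95.7, 57.7 and 102 in rrp6l1-2 and 73.8, 64.8 and 65.4 in WT, and LOX4 at -0.25 ± 0.54 (adjusted p = 0.848).

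At stress, no member passed the test between rrp6l1-2 and WT by either edgeR or DESeq2. At an unadjusted p under 0.05 there were 0 members, beside 3.77% of all genes, and 0.0834% of all genes were called by edgeR. The values ran from 0.04 ± 0.25 for VSP1, with levels of 304, 147 and 171 in rrp6l1-2 and 217, 126 and 260.1 in WT, to 0.32 ± 0.54 for LOX4. VSP1 turned to -0.01 with plain library sizes. LOX3 was the 1 member whose libraries did not overlap, by a margin between 4.30 in the lowest rrp6l1-2 library and 4.26 in the highest WT library, where 8.84% of all genes lay higher without overlap.

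The difference between stress responses was tested for each mutant against WT. In both tests edgeR called 0 of the 10 members and 0% of all genes, and DESeq2 called 0 members among 3 genes for ahl10-1 and 1 gene for rrp6l1-2. For ahl10-1, 3 members had an unadjusted p under 0.05 (AOS, AOC1 and VSP2), beside 1.39% of all genes. The response of AOC1 was larger in ahl10-1 by 0.84 ± 0.31 (95% interval 0.17 to 1.50), that of LOX4 by 1.04 ± 0.76 and that of OPR3 by 0.03 ± 0.18, with adjusted p of 1.00 for each. For rrp6l1-2, no member had an unadjusted p under 0.05, beside 1.68% of all genes. The response of LOX2 was smaller by -0.74 ± 0.40 (95% interval -1.60 to 0.11) and that of LOX4 larger by 0.58 ± 0.76. The members called in ahl10-1 and not in WT are therefore not shown to respond differently.

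The order of the group means was alike for LOX2, AOC1, AOC2, OPR3, JAR1, VSP1 and VSP2, with ahl10-1 stress at the top, followed by rrp6l1-2 stress and then by WT stress. Neighbouring stress groups overlapped in all of them, apart from VSP2 between ahl10-1 and rrp6l1-2. No member passed the test between a mutant and WT at stress. The share of all genes with this order was not counted. VSP2 averaged 494 ± 19.6 in ahl10-1 stress, 363 ± 98.7 in rrp6l1-2 stress and 346 ± 66.5 in WT stress (SD, n = 3), and the libraries of ahl10-1 and rrp6l1-2 were apart by the gap between 477 in the lowest ahl10-1 library and 476 in the highest rrp6l1-2 library. LOX2 averaged 494 ± 70.0, 419 ± 65.4 and 354 ± 99.8 in the same order, with overlap at each step. AOS followed another order, with 94.6 ± 7.86 in ahl10-1 stress, 85.2 ± 24.0 in rrp6l1-2 control and 78.7 ± 7.74 in rrp6l1-2 stress at the top and WT stress at the bottom with 66.1 ± 6.84. LOX3 and LOX4 had their highest means in control groups, LOX3 in rrp6l1-2 control (6.40 ± 1.50) and LOX4 in WT control (2.11 ± 1.92). Every step in their order overlapped.

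Other genes of jasmonate synthesis were counted beside the members. Of all genes tested, 15.7% were called higher at stress in ahl10-1, 14.9% in rrp6l1-2 and 12.6% in WT. Called lower were 14.4%, 14.7% and 13.4% in that order. Of 17 tested among 19, 7 were higher and 3 lower at stress in ahl10-1, 5 higher and 3 lower in rrp6l1-2, and 5 higher and 2 lower in WT, with medians of 0.10, 0.08 and 0.01. Of the genes of peroxisomal beta-oxidation, AIM1 rose by 0.60 ± 0.06, 0.44 ± 0.06 and 0.45 ± 0.06, MFP2 by 0.56 ± 0.07, 0.46 ± 0.07 and 0.49 ± 0.07, and KAT2 by 0.58 ± 0.08, 0.39 ± 0.08 and 0.45 ± 0.08 in ahl10-1, rrp6l1-2 and WT in that order. ACX1, an acyl-CoA oxidase gene, rose by 0.47 ± 0.08, 0.32 ± 0.08 and 0.43 ± 0.08, while its relative ACX5 was at -0.01 ± 0.08, 0.02 ± 0.08 and 0.04 ± 0.08. ACX5, PXA1, which imports the precursor into the peroxisome, and OPCL1, which activates it, passed in no genotype. These 4 genes were named after their values were seen. AOC4, the cyclase copy on another chromosome, rose by 0.63 ± 0.08, 0.59 ± 0.08 and 0.54 ± 0.08, and OPR1, a reductase related to OPR3, fell by 0.50 ± 0.13, 0.73 ± 0.13 and 0.75 ± 0.13. Of 3 related oxylipin genes, 2 were higher in each genotype and 1 was lower in ahl10-1 and in WT. The lower call, of LOX5, ended in 3 of the 15 alternatives in ahl10-1 and in 5 in WT. The higher call of LOX1 ended in 3 in rrp6l1-2 and in 2 in WT. Among the 3 genes, HPL1, a gene named for hydroperoxide lyase, rose by 2.22 ± 0.20 in ahl10-1, 1.80 ± 0.20 in rrp6l1-2 and 2.21 ± 0.21 in WT. RNA levels do not show whether a working enzyme is made. Its level was 15.3, 16.5 and 20.5 in ahl10-1 stress against 3.70, 4.37 and 3.16 in ahl10-1 control, and 16.5, 11.2 and 13.2 in WT stress against 2.65, 3.91 and 2.32 in WT control.

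Genes that sense the hormone or act on it were counted next. The shares of all genes called higher at stress were 15.7% in ahl10-1, 14.9% in rrp6l1-2 and 12.6% in WT. For genes called lower they were 14.4%, 14.7% and 13.4%. Of 11 genes of perception and MYC action, 2 were higher in ahl10-1, 2 in rrp6l1-2 and 1 in WT, and 0 were lower. The largest change was of NIG1 (AT5G46830), a bHLH transcription factor, at 2.42, 2.98 and 2.68 in ahl10-1 stress against 0.364, 0.237 and 0.0476 in ahl10-1 control, and at 2.11, 3.18 and 2.42 in WT stress against 0.276, 0.171 and 0.460 in WT control. It rose by 3.59 ± 0.44 in ahl10-1, 3.07 ± 0.43 in rrp6l1-2 and 3.08 ± 0.42 in WT. The receptor gene COI1 and MYC2, which were picked out after their values were seen, did not pass: COI1 was at -0.12 ± 0.06, -0.09 ± 0.06 and -0.09 ± 0.06 and MYC2 at 0.49 ± 0.32, 0.05 ± 0.32 and -0.36 ± 0.32. MYC2 was highest, at 69.9, in the WT control library that also had the highest LOX3. Of the 13 JAZ repressor genes, 1 was higher in ahl10-1, 2 were higher and 1 lower in rrp6l1-2, and 1 was higher in WT. With the replicate block, 2 were higher in ahl10-1 and 4 in rrp6l1-2. JAZ12, called in all 3, rose by 0.30 ± 0.08, 0.26 ± 0.08 and 0.25 ± 0.08, and its calls were lost without 2 single libraries in ahl10-1, 4 in rrp6l1-2 and 4 in WT, with values of 0.20 to 0.26. Of 11 genes that inactivate or modify jasmonates, 3 were higher in ahl10-1, 1 in rrp6l1-2 and 1 in WT. AT3G11180, called in each genotype, was at 1.46 ± 0.41, 2.44 ± 0.47 and 2.78 ± 0.46. It had few reads per library, 10 to 20, 2 to 8 and 2 to 8 at control. At stress it had 26 to 46, 25 to 39 and 32 to 50. In ahl10-1, CYP94B3 rose more, by 1.62 ± 0.34 (adjusted p = 0.00188). The ahl10-1 call of AT3G11180 was lost without control replicate 2 (1.28, adjusted p = 0.0569) or 3 (1.37, adjusted p = 0.0529). The ahl10-1 call of AT5G05600 ended in 5 of the 15 alternatives.

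Jasmonate output genes were counted by branch, beside 15.7% of all genes called higher at stress in ahl10-1, 14.9% in rrp6l1-2 and 12.6% in WT. Called lower were 14.4%, 14.7% and 13.4% of all genes. Of 6 genes of the MYC branch, to which VSP1 and VSP2 belong by their known regulation, 4 were higher and 1 lower in ahl10-1, 2 higher in rrp6l1-2 and 3 higher in WT. In ahl10-1 the lower call, of ANAC055, ended in 8 of the 15 alternatives and the higher call of JR1 in 5. The CLH1 call ended in 2 in rrp6l1-2 and the ANAC019 call in 4 in WT. CORI3, a coronatine-induced gene of the aminotransferase family, was at 98.2, 102 and 112 in ahl10-1 stress against 8.82, 9.05 and 11.3 in ahl10-1 control, and at 73.3, 60.7 and 78.8 in WT stress against 6.08, 14.2 and 11.3 in WT control. It rose by 3.42 ± 0.33 in ahl10-1, 2.37 ± 0.31 in rrp6l1-2 and 2.75 ± 0.32 in WT. Of 7 genes tested in the branch shared with ethylene, 2 were higher and 3 lower in ahl10-1, 1 higher and 2 lower in rrp6l1-2, and 1 higher and 2 lower in WT. The lower call of PR4 in ahl10-1 ended in 6 of the alternatives and the higher call of PR3 in 1. In rrp6l1-2 the lower call of PDF1.2 ended in 5. ORA59, the transcription factor of that branch, fell by 3.26 ± 0.44, 2.15 ± 0.43 and 2.75 ± 0.43 in the same order. THI2.1, a thionin gene in the same list, rose by 5.10 ± 0.85, 6.34 ± 0.95 and 6.32 ± 0.94, with 25.7, 7.78 and 31.7 in WT stress against 0.106, 0.688 and 0.0364 in WT control.

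**Figure D5:**
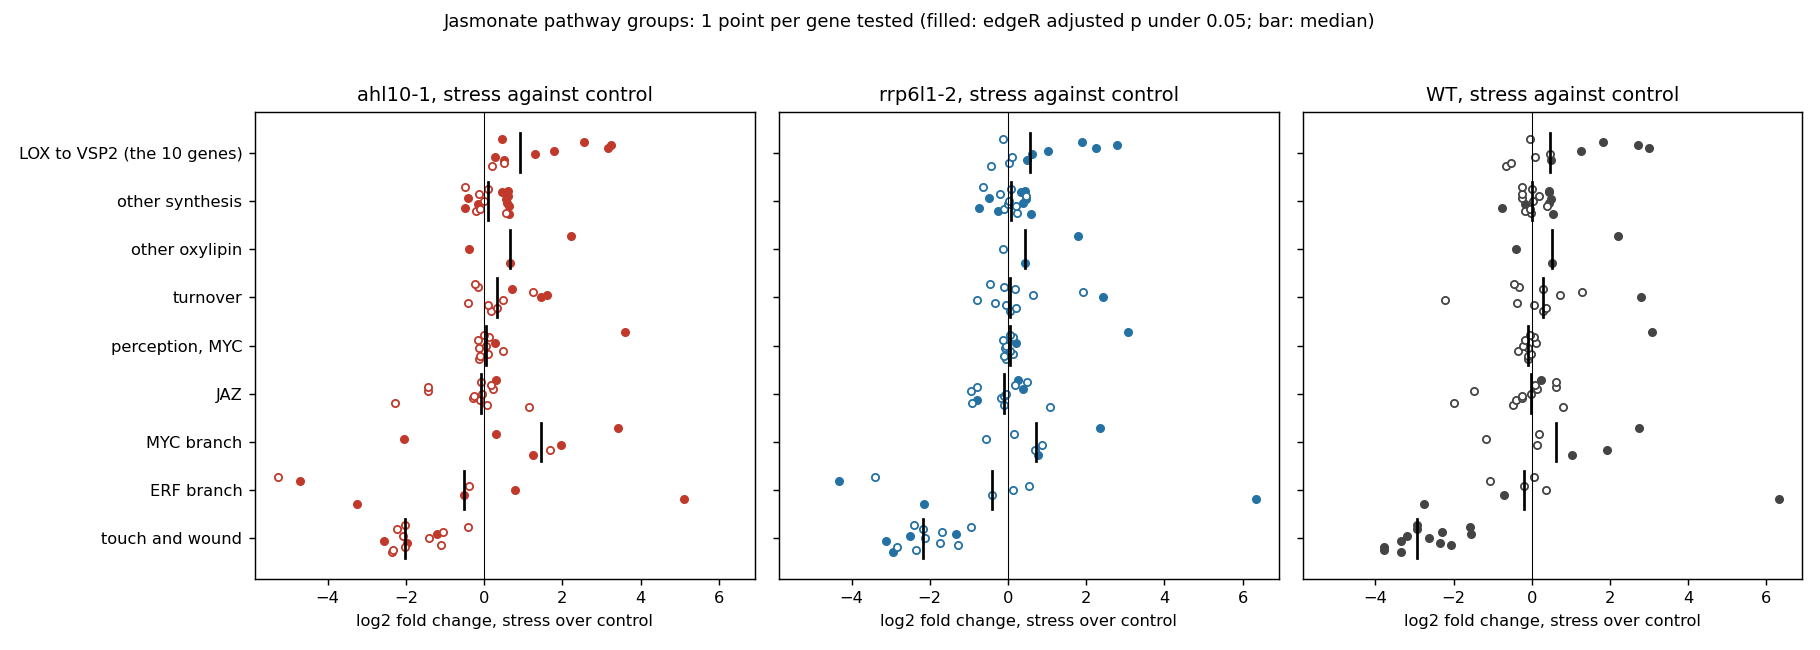
Log2 fold change, stress over control, of the 10 genes and of the other jasmonate gene groups in ahl10-1, rrp6l1-2 and WT, 1 point per gene tested (filled: edgeR adjusted p under 0.05; bar: median of the group). The members' medians of 0.91, 0.56 and 0.47 stand beside medians of 0.10, 0.08 and 0.01 for the other synthesis genes, and the touch and wound genes lie below 0.

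Likeness of profile was measured as Pearson's r of log2 CPM over the 18 libraries, among 18640 other genes whose log2 CPM averaged 1 or more. It is a description, since the 18 points share 6 groups and the large step from control to stress. The genes most like LOX2 were SCPL9 (r = 0.993), CORI3 (0.991), ESP (0.986), AT1G09500 (0.985) and ChlAKR (0.983). Among the members, VSP2 stood at rank 34 for LOX2 (r = 0.969), AOC2 at rank 68 (0.962) and VSP1 at rank 137 (0.950), while AOS (0.394), LOX4 (0.160) and LOX3 (-0.244) were unlike it. The genes most like VSP2 were AT4G16190 (0.991), AT4G21910 (0.990), TMT2 (0.990), PGDH (0.990) and AT3G28220 (0.988), and its neighbour VSP1 was at rank 17 (0.985). For OPR3 they were GRXC2 (0.940), SGS3 (0.936), NSP5 (0.935), AT5G18550 (0.935) and PSBP-2 (0.935), and the nearest member was VSP2 at rank 104 (0.889).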

How the data were processed

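Poly(A) RNA of whole seedlings was sequenced in 18 stranded libraries, 3 per group, described in the series' design text as independent experiments. Per the file headers, the authors deposited for each library an expected count, an RPKM value and a multi-mapped fraction for each of 33602 loci, and 5 comparison tables with a mean of normalized counts (a signal), a log2 fold change, a test statistic (a score) and p-values. Between 3.92% and 4.56% of loci had counts that were not whole. Bowtie2, DESeq2, bcl2fastq 1.8.4, CASAVA and the build TAIR10 are named in the submitters' processing notes. Which program counted the reads, and with which strand option, is not given in the sources used here. 0 annotated genes overlap a member.

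In R 4.3.3, rounded counts went into the quasi-likelihood test of edgeR 4.0.16 (robust), with TMM factors of 0.901 to 1.072, filterByExpr by group, 6 group means and 12 residual degrees of freedom. The biological coefficient of variation was 14.4%. The script was tested on simulated counts. Chi-square per gene between replicates was 15.7 to 106, and 0 of 18 pairs were identical. Members and lists were chosen with earlier results of these data known. The text names the members, up to 4 list genes with the smallest adjusted p per comparison and the 5 genes most like LOX2, OPR3 and VSP2. Names are RefSeq's, in which 114 of 114 listed genes have a locus tag. Alternatives were DESeq2 1.42.0, limma 3.58.1 on log2 (RPKM + 0.1 or 0.5), other scaling, no filter, the compared groups alone, copies added together, a replicate block and each replicate left out. Same-numbered libraries deviated together, with every r above 0.1, between stress and control in ahl10-1 (0.239, 0.205 and 0.327) and in rrp6l1-2 (0.444, 0.123 and 0.160) and between rrp6l1-2 and WT at control (0.435, 0.312 and 0.198). The labels do not say what a number shares. The deposited comparison tables were used only where named.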

Additional observations from a re-analysis of the deposited data

How the results depend on the processing

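The members called higher at stress numbered 7 in ahl10-1, 4 to 6 in rrp6l1-2 and 5 to 6 in WT when single libraries were left out, and the 5 called in every genotype kept their direction in all alternatives. Members called lower numbered 0 to 1 in rrp6l1-2 and in WT. Near 0, AOS reversed at stress in rrp6l1-2 with limma (0.0280 with a pseudocount of 0.1, 0.0277 with 0.5) and plain library sizes (0.00438), and in WT likewise (0.0238, 0.0237 and 0.0323). VSP1 reversed between rrp6l1-2 and WT at stress (-0.0216, -0.0216 and -0.00986). The cause was not tested. Plain library sizes moved the median of all genes by up to 0.106.

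With libraries left out, AOS ran from -0.35 to 0.0362 in rrp6l1-2 and -0.11 to 0.0371 in WT. LOX4 ran from -0.38 to 0.45 in rrp6l1-2 and -0.94 to 0.51 in WT, from -1.03 to 0.43 for ahl10-1 and -0.67 to 0.80 for rrp6l1-2 against WT at control, and from -0.0149 to 1.44 and -0.48 to 0.99 in the ahl10-1 and rrp6l1-2 response differences. OPR3 ran from -0.0836 to 0.18 in the ahl10-1 response difference, and VSP1 from -0.35 to 0.27 for rrp6l1-2 against WT at stress. These gave 6 to 27 genes for ahl10-1 and 16 to 71 for rrp6l1-2 at control, and 0 to 1 for the rrp6l1-2 response difference.

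DESeq2 called 21 genes for ahl10-1 and 804 for rrp6l1-2 against WT at control, 27 and 56 at stress, 3 and 1 for the response differences, and 1 member (LOX2, rrp6l1-2 at control). The compared groups alone gave 24 genes for rrp6l1-2 at control and 5 (ahl10-1) and 40 (rrp6l1-2) at stress. With the replicate number as a block, 148 genes were called for rrp6l1-2 at control, in place of 48. The block changed no call of a member and moved no other count over all genes by over 1.5 times. Among the gene lists at stress it moved those higher to 2 JAZ genes in ahl10-1, 4 in rrp6l1-2 and 2 in WT, to 1 root marker in rrp6l1-2 and to 2 turnover genes in WT, and those lower to 2 shoot markers in ahl10-1 and to 6 (ahl10-1) and 9 (rrp6l1-2) touch and wound genes. In the other 4 comparisons of groups the same-numbered libraries did not all deviate together, though 17 of 18 libraries matched best a library of their own number.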
